A study of Mus musculus with 36 samples.

Results

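Apolipoproteins and the factors that load them with lipid were followed in mouse liver through 10 genes chosen by name: Apoa1, Apoa2, Apoa4, Apoa5, Apob, Apoc3, Apoe, Apom, Lcat and Mttp. All 10 were found among the 53715 gene identifiers of the count table, and 9 of them were among the 14068 genes with enough counts to test. The tenth, Lcat, was listed at 0 in every library. The livers came from male C57BL/6 mice aged 10 weeks. Control mice ate AIN93G, a purified rodent diet without tomato. From 4 weeks of age and for 6 weeks, the Red group ate AIN93G with 10% powder of red tomato and the Tangerine group AIN93G with 10% powder of tangerine tomato, a variety rich in cis forms of lycopene. Each diet had 12 bulk RNA-seq libraries with distinct mouse numbers, read here as 12 mice, although the labels give a group size that can be lower. No member passed the test in any comparison between diets, and between mice of the same diet some pairs of members varied together.

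Hepatocytes build very low density lipoprotein, the particle that carries triglyceride out of the liver, by adding lipid to a single large protein, ApoB, with the help of the microsomal triglyceride transfer protein encoded by Mttp. High density lipoprotein forms outside the cell around ApoA1 and ApoA2, and the plasma enzyme LCAT esterifies its cholesterol. Smaller exchangeable apolipoproteins then set the fate of the particles: ApoE is a ligand for their uptake, ApoC3 restrains the hydrolysis and clearance of triglyceride, and ApoA5 promotes it.

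The libraries held between 21290169 and 33810573 counts. Of 9 hepatocyte marker genes with a matching symbol all 9 were detected, with a summed level of 89000 to 120000 counts per 1000000 (CPM) per library. CPM of single genes are counts after TMM scaling (trimmed mean of M values) in edgeR. Sums over marker genes, and the limit given below for Lcat, are scaled by the total count alone. A few libraries stood apart. Control 137 had the lowest total count and the highest level of 4 members. Red 186 had a summed level of 267 CPM over 8 T cell markers, against at most 11.2 CPM in any other library, and the lowest level of 5 members. Red 177 had the highest sum over 10 Kupffer cell and macrophage markers, 444 CPM against at most 352 CPM elsewhere. Tangerine 192 had the lowest Apoa2 and the highest sum over 6 cholangiocyte markers, 112 CPM against at most 51.9 CPM elsewhere. Its sum over 10 stellate cell and fibroblast markers was also the highest, 532 CPM against at most 404 CPM. The part of these cell types in the member values was not tested. In bulk liver, fewer cells of a type and less RNA per cell cannot be told apart.

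Apoe, Apoa1, Apoa2 and Apob were among the most abundant transcripts of these livers. Together the members took 3.79% ± 0.365 (SD, n = 36) of all counts, with 3.78% ± 0.485 in Control, 3.82% ± 0.358 in Red and 3.79% ± 0.246 in Tangerine (SD, n = 12 each). By mean share of counts Apoe ranked 4 and Apoa1 ranked 6 among all genes, followed by Apoa2 at 15 and Apob at 26. Apoc3 ranked 87, Apoa5 328, Apoa4 429, Mttp 455 and Apom 486. Per kilobase of annotated exon, a scale that allows genes to be compared, the order was different. Apoa2, which has only 537 exon bases, led with 11720 ± 1650 CPM per kb (SD, n = 36), followed by Apoa1 with 8243 ± 1520. Apoe came next with 6516 ± 965 CPM per kb and Apoc3 with 1557 ± 259. Apoa2 exceeded Apoa1 in 36 of 36 libraries, Apoa1 exceeded Apoe in 34, and Apoe exceeded Apoc3 in 36. Apob, spread over 13934 exon bases, had 350.0 ± 83.7 CPM per kb, Apom had 233.7 ± 34.2, and Mttp was lowest with 41.39 ± 4.13.

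The places of Apoa4, Apoa5 and Mttp in that order depend on how much of each gene could be counted. In the annotation, 81.2% of the exon bases of Apoa4, 52.8% of those of Apoa5 and 30.7% of those of Mttp lie under another gene on the opposite strand. The other 6 tested members have no exon base under another gene. Divided by all exon bases, Apoa4 had 150.3 ± 60.9 and Apoa5 143.6 ± 15.3 CPM per kb (SD, n = 36), and Apoa4 was the higher in 17 of 36 libraries, so their order could not be told. Divided by the exon bases clear of other genes, Apoa4 had 797.8 ± 323 CPM per kb, above Apob in 35 of 36 libraries. On that scale Apoa5 had 304.0 ± 32.4 and Mttp 59.7 ± 5.95 CPM per kb. Comparisons of the same gene between diets do not use these lengths.

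Lcat, the enzyme that matures high density lipoprotein, had 0 counts in all 36 libraries. A limit of 3 counts in a library would be 0.0887 to 0.141 CPM, and covers counting error only. The gene lies on chromosome 8 at 105939551 to 105943382, minus strand (GRCm38), with 6 exons, and its whole span of 1342 exon bases and introns is under Gm16156, an antisense gene on the plus strand at 105934333 to 105945843. No exon base of Lcat overlaps an exon of Gm16156, which itself had 461 counts over all libraries, 6 to 28 per library. A listed 0 was common to genes in that position. Of 1335 protein-coding genes whose whole span lies under other genes, 1284 (96.2%) had 0 counts in all libraries, against 2699 of 11714 (23.0%) with no base under another gene. The share was 97.2% of 779 genes covered only by genes of the opposite strand, 97.2% of 352 covered only by genes of the same strand, and 98.2% of 681 without any overlap of exons. The 0 of Lcat is therefore not read as absence of its RNA, and no comparison of Lcat between diets could be made.

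**Figure D1:**
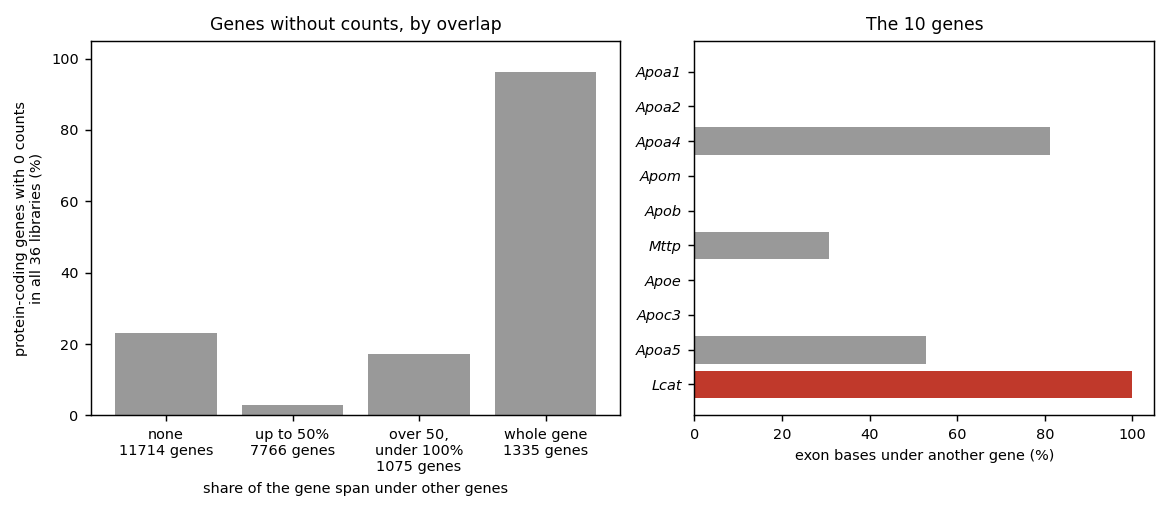
Left, the percentage of protein-coding genes with 0 counts in all 36 libraries, by the share of the gene's span that lies under other genes in the annotation; bars reach 23.0%, 2.96%, 17.1% and 96.2%. Right, the percentage of each gene's exon bases that lie under another gene: Lcat is wholly covered and had no counts, Apoa4, Apoa5 and Mttp are partly covered, and the other 6 have no covered exon base.

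Other genes of lipoprotein metabolism were listed at 0 as well. Among 225 further genes of the pathway and marker lists, 12 were at 0 in all libraries, and 10 of these lie wholly under other genes. They include Angptl8, a secreted regulator of lipoprotein lipase that lies inside Dock6. Apoc2, the activator of that lipase, was also at 0, with 99.9% of its span under Gm44805. These genes, like Lcat, are not analysed here.

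Among the proteins of high density lipoprotein, Apoa1 is the main structural component. It lies on chromosome 9 at 46228580 to 46230466, plus strand. The lowest, median and highest levels of Apoa1 were 7701, 9427 and 15938 CPM in Control, 5718.5, 10429 and 12714 CPM in Red and 8658, 9788 and 12027 CPM in Tangerine. The 3 ranges overlapped nearly throughout, with the highest value in Control 137 and the lowest in Red 186. The log2 fold change was -0.02 for red against control (SE 0.109), -0.05 for tangerine against control (SE 0.109) and -0.03 for tangerine against red (SE 0.109), with p of 0.868, 0.664 and 0.788 in edgeR's quasi-likelihood test. Apoa2, the second protein of the particle (chromosome 1, 171225054 to 171226379, plus strand), had 5576, 6010.3 and 10313 CPM in Control, 5281, 6214 and 7457 CPM in Red and 5142, 6077 and 7568 CPM in Tangerine. Control 137 again lay far above the rest, and the next highest control library had 6760 CPM. The differences for Apoa2 were -0.02, -0.04 and -0.02 on the log2 scale (SE 0.0788 each) with p of 0.778, 0.618 and 0.829.

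Apom, which carries sphingosine 1-phosphate on high density lipoprotein, lies on chromosome 17 at 35128997 to 35132050, minus strand. Its lowest, median and highest levels were 179, 234 and 261 CPM in Control, 162, 234 and 306 CPM in Red and 181, 235 and 292 CPM in Tangerine. The medians were almost equal while Red spanned the widest range. Apom was 0.08 higher on the log2 scale in Red than in Control (SE 0.0862, p = 0.336) and 0.07 higher in Tangerine (SE 0.0863, p = 0.445), neither beyond the spread between mice. Apoa4, an apolipoprotein of intestine and liver (chromosome 9, 46240696 to 46243459, plus strand), varied most. Its lowest, median and highest levels were 193, 258 and 449.8 CPM in Control, 159.9, 223 and 711 CPM in Red and 170.5, 249 and 470.0 CPM in Tangerine. Red 177 held the 711 CPM, and the next highest Red library had 309 CPM. The difference was -0.11 for red against control (SE 0.204, p = 0.596) and 0.15 for tangerine against red (SE 0.204, p = 0.460). Without Red 177 these became -0.36 (p = 0.0301, adjusted 0.329) and 0.41 (p = 0.0160, adjusted 0.220), still short of the threshold after Benjamini-Hochberg adjustment in edgeR over all genes.

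For the assembly of very low density lipoprotein, Apob encodes the scaffold protein. It lies on chromosome 12 at 7977648 to 8016835, plus strand. The lowest, median and highest levels of Apob were 3193, 4839 and 7267 CPM in Control, 3427, 4403 and 7325 CPM in Red and 3747, 4714 and 7508 CPM in Tangerine. The highest library of each diet lay between 7267 and 7508 CPM, and the ranges nearly coincided. Apob differed by -0.10 in red against control (SE 0.134, p = 0.448), -0.02 in tangerine against control (SE 0.134, p = 0.866) and 0.08 in tangerine against red (SE 0.134, p = 0.554). Mttp (chromosome 3, 138089854 to 138144968, minus strand) was the steadiest member over all libraries, with a coefficient of variation of 9.97%. Its lowest, median and highest levels were 197.5, 272 and 304 CPM in Control, 224, 247 and 300.45 CPM in Red and 225, 249.7 and 279 CPM in Tangerine. The lowest value was that of Control 137, and the tomato medians lay below the control median inside its range. Mttp differed by -0.06 in Red (SE 0.0605, p = 0.299) and -0.08 in Tangerine (SE 0.0605, p = 0.192) against Control.

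The remaining members act on the particles in plasma. Apoe, the ligand through which remnants are taken up, lies on chromosome 7 at 19696109 to 19699188, minus strand. Its lowest, median and highest levels were 10742, 12724 and 21544 CPM in Control, 10742, 13544 and 19048 CPM in Red and 12973, 14127 and 16492 CPM in Tangerine. Every Tangerine library lay above the control median, but the ranges overlapped and the highest control library exceeded all of Tangerine. The difference was 0.07 for tangerine against control (SE 0.0845, p = 0.445), 0.07 for tangerine against red (SE 0.0845, p = 0.402) and -0.01 for red against control (SE 0.0845, p = 0.940). Without Control 137 the first of these was 0.14 (p = 0.0519, adjusted 0.707 in edgeR).

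Apoc3, an inhibitor of triglyceride clearance, lies next to Apoa1 on chromosome 9 at 46232933 to 46235636, minus strand. It had the smallest p of any member in red against control and in tangerine against red. Its lowest, median and highest levels were 1366, 1528 and 2735 CPM in Control, 1128, 1528 and 1652 CPM in Red and 1366, 1587 and 2044.5 CPM in Tangerine. The control and red medians were equal to within 1 CPM, and the mean of Control was raised by the 2735 CPM of Control 137. Apoc3 was -0.16 in red against control (SE 0.0864, p = 0.0734, adjusted 0.431 in edgeR) and 0.14 in tangerine against red (SE 0.0864, p = 0.104, adjusted 0.438 in edgeR). Without Control 137 the first value was -0.07 (p = 0.308) and the second 0.14 (p = 0.0338, adjusted 0.256 in edgeR).

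Apoa5, which promotes the clearance of triglyceride, lies on the same stretch of chromosome 9 at 46268633 to 46271919, plus strand. Its lowest, median and highest levels were 337, 346 and 374 CPM in Control, 279.99, 369.6 and 467 CPM in Red and 290.25, 385 and 425 CPM in Tangerine. Control mice formed a narrow band inside the wider ranges of both tomato diets. Apoa5 had the smallest p of the members in tangerine against control, with a log2 difference of 0.11 (SE 0.0633, p = 0.0969, adjusted 0.954 in edgeR), and 9 of 12 Tangerine libraries lay above the control median. The difference in Red was 0.07 (SE 0.0633, p = 0.300).

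**Figure D2:**
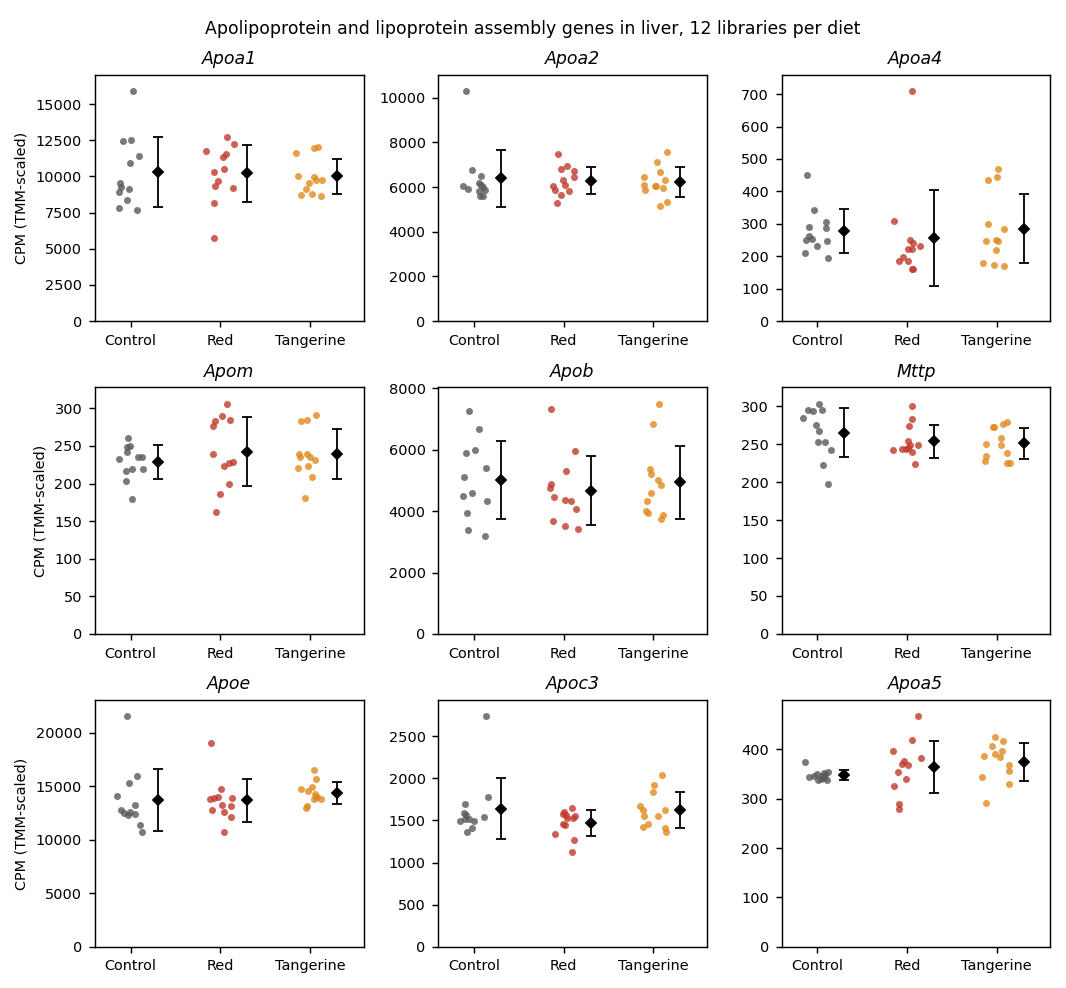
Each point is the level of a gene in 1 library, in TMM-scaled CPM, with 12 libraries per diet; diamonds and bars are the mean and SD of the diet. The diets overlap in all 9 panels, Control 137 is the isolated high point of Apoa1, Apoa2, Apoe and Apoc3, Red 177 is that of Apoa4, and the control points of Apoa5 lie between 337 and 374 CPM.

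In the comparison of red tomato with control, 0 of 9 tested members passed an adjusted p of 0.05 in edgeR's quasi-likelihood test, where 0.149% of all 14068 genes did. For tangerine against control the count was 0 of 9 beside 0.0142% of all genes, for tangerine against red 0 of 9 beside 1.71%, and for the mean of the tomato diets less control 0 of 9 beside 0.00711%. An omnibus test over the 3 diets called 0 of 9 members and 1.18% of all genes. With shares this low among all genes, 0 calls among 9 is near the background. At an unadjusted p under 0.05 the members again numbered 0 of 9 in each directed comparison, while 13.3%, 5.47%, 15.1% and 6.77% of all genes lay below that value in the same order. The median log2 fold change over the 9 members was -0.02, -0.02, 0.04 and -0.03, against -0.0047, -0.012, -0.0046 and -0.0092 over all genes tested.

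Over the 9 members the 95% intervals of the fold change ran from 0.696 to 1.24 in red against control, from 0.774 to 1.37 in tangerine against control and from 0.834 to 1.48 in tangerine against red. The widest was in each case that of Apoa4. For Apob, the interval for red against control was 0.772 to 1.12, and for Mttp it was 0.879 to 1.04.

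**Figure D3:**
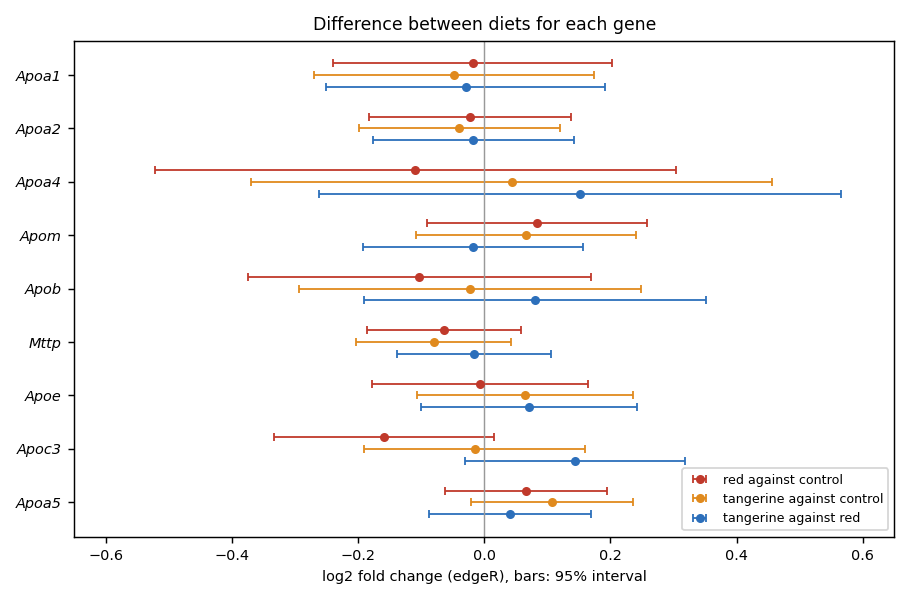
Log2 fold change of each gene in 3 comparisons (points) with the 95% interval from edgeR's quasi-likelihood fit (bars); the vertical line marks no difference. All 27 intervals cross the line, and those of Apoa4 are the widest.

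Genes around the members were read from 7 pathway lists. Outside the members, 115 of their genes were tested. In red against control 0 of 115 were called, in tangerine against control 0, and for the mean of the tomato diets 0, beside the shares of all genes given above. In tangerine against red 3 of 115 (2.61%) were called, all higher on tangerine than on red. Of all genes 1.71% were called there and 0.732% were called higher. Abcg5 and Abcg8 form the transporter that exports sterols into bile, and they were the 2 called genes among 12 tested of sterol efflux. Abcg5 had 83.2 ± 11.6 CPM in Control, 67.5 ± 7.72 in Red and 86.0 ± 12.4 in Tangerine (SD, n = 12). Tangerine was 0.35 above Red on the log2 scale (SE 0.0788, adjusted p = 0.0173 in edgeR). Against Control, Red was at -0.30 (SE 0.0788, adjusted p = 0.0729 in edgeR) and Tangerine at 0.048 (SE 0.0787). Abcg8 had 125 ± 20.7, 104.9 ± 12.6 and 133 ± 20.6 CPM, with Tangerine 0.34 above Red (SE 0.0865, adjusted p = 0.0300 in edgeR). Against Control, Red was at -0.25 (SE 0.0864, adjusted p = 0.178 in edgeR) and Tangerine at 0.089 (SE 0.0863). Cebpa, a transcription factor of hepatocyte genes, was the single call among 28 tested regulators, with 323 ± 42.0, 292 ± 46.0 and 362.5 ± 54.7 CPM. Tangerine was 0.31 above Red (SE 0.0845, adjusted p = 0.0452 in edgeR). Against Control, Red was at -0.14 (adjusted p = 0.475) and Tangerine at 0.17 (adjusted p = 0.920 in edgeR).

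The state of the circadian clock moved with that comparison. A clock score, the first principal component of 14 clock genes holding 83.0% of their variance and signed so that a high score means high Dbp, averaged 0.861 ± 2.85 in Control, -2.51 ± 2.27 in Red and 1.65 ± 2.09 in Tangerine (SD, n = 12). With the score as a covariate, the differences between tangerine and red were 0.16 for Abcg5 (adjusted p = 0.476), 0.10 for Abcg8 (adjusted p = 0.677) and 0.11 for Cebpa (adjusted p = 0.656) in edgeR. In that fit 0 of all 14068 genes were called between tangerine and red, in place of 241, so the loss is not particular to these genes. Without Red 186 and Tangerine 216, a library with 11.0 CPM over 8 exocrine pancreas markers where others had at most 0.335 CPM, the differences were 0.305 for Abcg5 (adjusted p = 0.0528), 0.285 for Abcg8 (adjusted p = 0.109) and 0.287 for Cebpa (adjusted p = 0.126) in edgeR, and 86 genes in all were called in place of 241.

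No gene of the other lists passed the threshold in any directed comparison, and genes with the smallest p are given by value. In the list of ApoB assembly and secretion, with 22 tested genes, Dgat2, which makes the triglyceride that is packed into the particle, had 615 ± 92.4 CPM in Control, 516 ± 51.1 in Red and 616 ± 80.8 in Tangerine (SD, n = 12). Its adjusted p was 0.122 in red against control and 0.0722 in tangerine against red in edgeR. Tm6sf2, which takes part in lipidation of the particle, had 33.1 ± 3.67, 29.3 ± 4.04 and 30.0 ± 3.64 CPM (adjusted p = 0.633 for both tomato diets against control in edgeR). Among 18 tested genes of lipoprotein uptake, the sorting nexin Snx17 had 14.9 ± 1.78, 14.4 ± 1.05 and 13.4 ± 1.26 CPM (adjusted p = 0.782 for tangerine against control in edgeR).

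Among 13 tested lipases and their regulators, Pltp, the phospholipid transfer protein, had 72.5 ± 24.0 CPM in Control, 69.6 ± 20.8 in Red and 54.7 ± 13.9 in Tangerine (SD, n = 12), with an adjusted p of 0.812 for tangerine against control in edgeR. Lipa, the lysosomal acid lipase, had 299.7 ± 44.4, 323.5 ± 41.3 and 282 ± 37.9 CPM (adjusted p = 0.218 for tangerine against red in edgeR). Lmf1, needed for lipase maturation, had 31.2 ± 5.31, 32.9 ± 3.02 and 34.5 ± 2.61 CPM. Creb3l3, a liver transcription factor that regulates Apoa4 and Apoc2, had 238 ± 23.2, 263 ± 43.3 and 250.3 ± 32.7 CPM (adjusted p = 0.431 for red against control in edgeR). Of 10 tested apolipoproteins and associated proteins outside the members, Apof had 619 ± 57.5, 580.1 ± 49.3 and 622 ± 42.5 CPM, the chaperone clusterin (Clu) 1016 ± 123, 1078 ± 144 and 1103 ± 66.6 CPM, and the antioxidant enzyme Pon1 694 ± 67.1, 653 ± 69.1 and 737.5 ± 93.9 CPM.

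In the list of regulators, Ppara, the fatty acid sensor that represses Apoc3, had 133 ± 40.8 CPM in Control, 146 ± 35.2 in Red and 167 ± 47.2 in Tangerine (SD, n = 12; adjusted p = 0.890 for tangerine against control in edgeR). Abcg1, a sterol exporter, had 4.95 ± 1.02, 6.41 ± 1.58 and 5.98 ± 1.27 CPM (adjusted p = 0.591 for both tomato diets against control in edgeR). Of 19 tested genes of the feeding and fasting state, Pdk4, a fasting gene, had 9.93 ± 6.49, 18.8 ± 11.2 and 8.43 ± 3.85 CPM (adjusted p = 0.0590 for tangerine against red in edgeR).

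Within diets, some pairs of members varied together from mouse to mouse. With the mean of each diet subtracted from log2 CPM, 36 pairs of members were compared over 36 libraries, and p-values came from 100000 permutations within diets, with 1e-05 the smallest they can give. Adjusted over the 36 pairs by the Benjamini-Hochberg method, 13 pairs had a positive and 2 a negative correlation with an adjusted p under 0.05. A further 6 pairs, 5 of them negative, had an adjusted p of 0.0501. By size alone, 36.1% of the member pairs had r at or above 0.365 and 19.4% at or below -0.365, where 0.365 is the smallest size among the pairs under 0.05 and was chosen after the values were seen. Over all pairs of the 7853 genes whose log2 CPM averaged 3 or more, members included, these shares were 15.9% and 15.1%. Apoa2, Apoc3 and Apoe rose and fell together. Pearson's r was 0.889 for Apoa2 with Apoc3 (Spearman's rho 0.774), 0.813 for Apoc3 with Apoe (rho 0.745) and 0.780 for Apoa2 with Apoe (rho 0.707), each with a permutation p of 1e-05 and an adjusted p of 9e-05. Leaving out the 2 libraries farthest from the median of the first gene named in the pair left r at 0.777, 0.675 and 0.631. Apoa1 paired with Apom instead (r 0.764, rho 0.765, permutation p = 1e-05, adjusted p = 9e-05), and r was 0.711 without Red 186 and Control 137. Within Control, Red and Tangerine alone that pair had r of 0.802, 0.787 and 0.871. Apob ran against Apoa1 (r -0.498, rho -0.543, permutation p = 0.00294, adjusted 0.0118) and against Apoc3 (r -0.444, rho -0.458, permutation p = 0.00837, adjusted 0.0232). These were -0.559 without the 2 libraries farthest from the median of Apoa1 and -0.399 without the 2 farthest from that of Apob. For the other positive pairs under 0.05, r without the 2 libraries farthest for the first gene named was 0.25 for Apoa1 with Apoa2. It was 0.241 for Apoa1 with Apoc3 and 0.229 with Apoe. It was 0.482 for Apoa2 with Apoa4, 0.614 with Apoa5, 0.233 for Apoa4 with Apoa5 and 0.477 with Apoe. For Apoa5 with Apoe it was 0.265 and for Apoc3 with Apom 0.393. Control 137 was not among the libraries left out where Apob, Apoa4 or Apoa5 set the choice. With Control 137 alone left out, r was -0.363 for Apob with Apoc3 and 0.482 for Apoa4 with Apoa5. For Apoe it was 0.616 with Apoa4 and 0.492 with Apoa5. The adjusted permutation p of rho was 0.124 for Apoa1 with Apoe and 0.166 for Apoa4 with Apoa5. It was 0.0955 for Apoa5 with Apoe and 0.147 for Apoc3 with Apom.

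A property of the libraries moved with these patterns. A length index was formed for each library, after its values had been seen, as the median log2 deviation of the 3004 genes with at least 6946 exon bases minus that of the 3003 genes with at most 2845. It averaged -0.0095 ± 0.193 in Control, 0.021 ± 0.100 in Red and -0.012 ± 0.128 in Tangerine (SD, n = 12), and its lowest values were -0.56 in Control 137 and -0.23 in Tangerine 242. After subtraction of diet means, over 36 libraries, 5 members ran against it. The share of all genes that would pass the same test was not computed, so this count is not read as particular to the members. The correlation was -0.841 for Apoc3 (rho -0.749), -0.749 for Apoe (rho -0.606) and -0.711 for Apoa1 (rho -0.702), each with a permutation p of 1e-05 and an adjusted p of 3e-05 over 9 members. Apoa2 had r -0.778 (rho -0.613, permutation p = 3e-05, adjusted 5.4e-05) and Apom r -0.458 (rho -0.517, permutation p = 0.00157, adjusted 0.00235). Apob, the longest transcript, ran the other way with r 0.685 (rho 0.715, permutation p = 3e-05, adjusted 5.4e-05). Without Control 137 and Tangerine 242, r was -0.685 for Apoc3, -0.573 for Apoe, -0.620 for Apoa1, -0.516 for Apoa2, -0.441 for Apom and 0.686 for Apob. The relation of Mttp rested on those libraries, with r 0.385 (rho 0.131, permutation p = 0.0484, adjusted 0.0622) with them and 0.022 without. For Apoa4 (r -0.234, rho -0.293, permutation p = 0.129, adjusted 0.145) and Apoa5 (r 0.0199, rho 0.0731, permutation p = 0.887, adjusted 0.887) the relation did not pass the threshold, although with 1815 and 2522 exon bases both are within the length of the short genes.

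**Figure D4:**
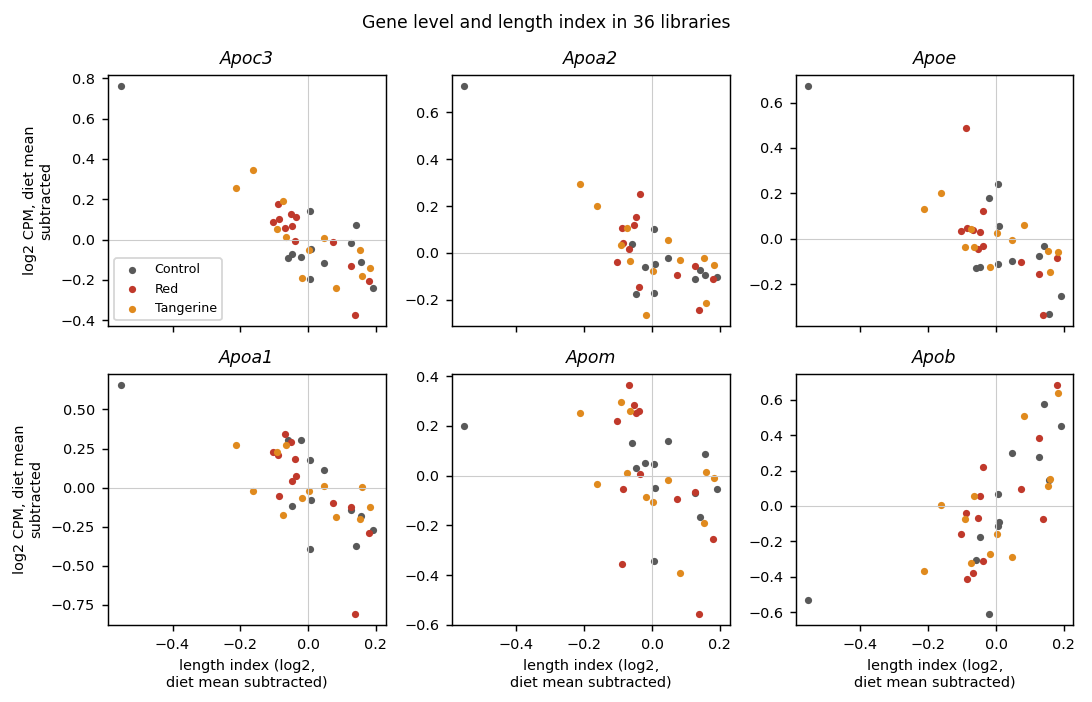
Each point is 1 of 36 libraries, coloured by diet; the x axis is the length index and the y axis log2 CPM of the gene, both with the diet mean subtracted. Apoc3, Apoa2, Apoe, Apoa1 and Apom fall and Apob rises along the index, and Control 137 lies far to the left in every panel.

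The median correlation with the index was -0.276 over the 3003 short genes and 0.373 over the 3004 long genes. Over all 12006 genes used it was 0.034. The short and long genes define the index, so their signs follow from how it was built. Whether length sets the sign for the members was not tested. When the index was removed from both members of a pair by linear regression, r remained at 0.702 for Apoa1 with Apom and 0.690 for Apoa2 with Apoc3. It was 0.511 for Apoc3 with Apoe and 0.475 for Apoa2 with Apoe. The negative pairs of Apob went to -0.021 with Apoa1 and 0.335 with Apoc3. Of the positive pairs under 0.05, 4 went below 0: Apoa1 with Apoa2 went from 0.527 to -0.0598, with Apoc3 from 0.551 to -0.126 and with Apoe from 0.521 to -0.0243, and Apoc3 with Apom went from 0.365 to -0.0422. Apoe with Apom went from 0.0523 to -0.494. Apoa5 with Apoa2 went from 0.401 to 0.663, and Apom with Apoa4 from -0.408 to -0.596. These adjusted values are descriptions without a test, and all pairs share library, depth and scaling. The clock score, handled in the same way, had no relation with a member at an adjusted p under 0.05 over 9 members; the smallest was for Apoa5 (r 0.309, rho 0.264, permutation p = 0.0509, adjusted 0.458). As a description without a test, its r with Mttp was 0.628 within Red and -0.629 within Tangerine, and with Apoa4 0.406 and -0.575.

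**Figure D5:**
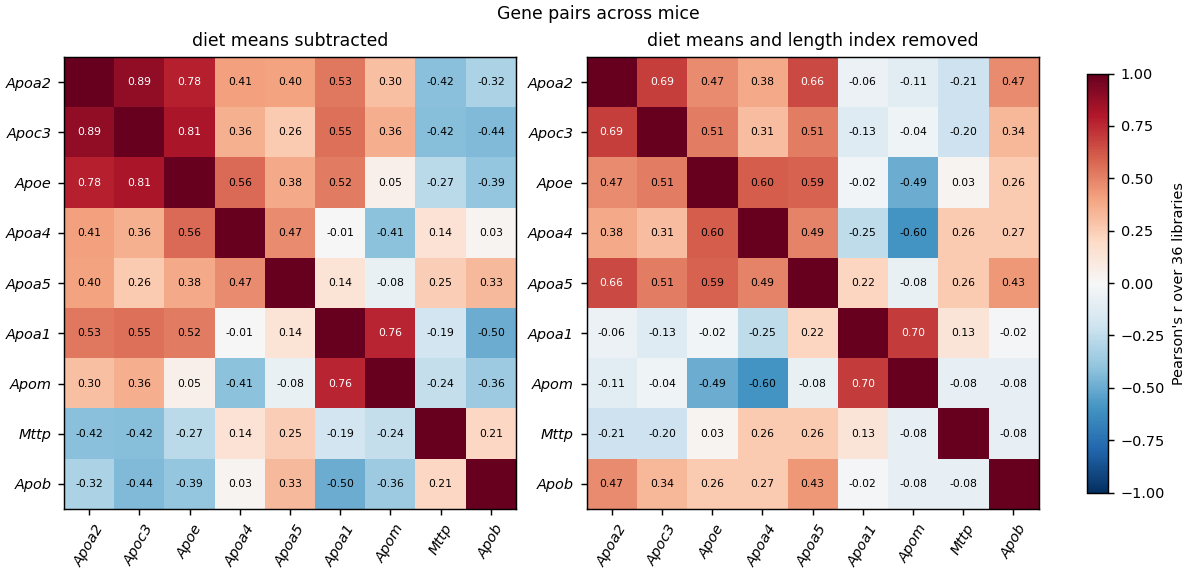
Pearson's r over 36 libraries for each pair of the 9 tested genes, left with diet means subtracted and right with the length index also removed by regression. The block of Apoa2, Apoc3 and Apoe and the pair of Apoa1 and Apom stay positive in both panels, while Apob goes from -0.498 to -0.021 with Apoa1 and from -0.444 to 0.335 with Apoc3.

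Over 36 libraries and among 7844 genes whose log2 CPM averaged 3 or more, after subtraction of diet means, the 3 closest genes to Apoe were Cox6a1 (r 0.928), Atp5d (0.924) and Apoc1 (0.904). Apoa2 was closest to Uqcrq (0.902), Ndufa3 (0.893) and Cox7b (0.892), and Apoc3 to Fkbp8 (0.910), Cox7b (0.907) and Ndufa6 (0.900). Apoa1 was closest to C1ra (0.857), Ambp (0.848) and Ces3a (0.847), and Apom to Itih1 (0.818), Serpina1e (0.818) and Serpinf2 (0.813). Apob was closest to Usp24 (0.917), Ptpn11 (0.869) and Ecpas (0.854). The ties of the other members were looser. Apoa5 was closest to Gpat4 (0.767), Acsl1 (0.758) and D17Wsu92e (0.746), Apoa4 to Suox (0.771), Sec14l2 (0.764) and Agpat3 (0.737), and Mttp to Rad23b (0.760), Gpd2 (0.746) and Ncbp1 (0.714). Usp24, Ptpn11 and Ecpas themselves correlated with the length index at 0.822, 0.647 and 0.836. For the genes closest to Apoe, Apoa2 and Apoc3 this r ran from -0.711 (Atp5d) to -0.889 (Ndufa6). It ran from -0.512 to -0.805 for those of Apoa1 and from -0.267 to -0.617 for those of Apom. For those of Apoa4, Apoa5 and Mttp it lay between -0.477 (Sec14l2) and 0.522 (Rad23b). No value with the index removed or a library left out is given for these ties. Whether they are particular to the genes named was not tested.

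The promoters of Apoa2 and Apob, which lay on opposite sides of the length index, and of Apoa5, whose relation to it did not pass the threshold, are shown as the 250 bases before the RefSeq start (GRCm38.p6), 5′ to 3′ on the gene's strand, with motif matches in capitals. The windows are chr1:171224804-171225053, plus strand, for Apoa2, chr12:7977427-7977676, plus strand, for Apob and chr9:46268383-46268632, plus strand, for Apoa5.
Apoa2: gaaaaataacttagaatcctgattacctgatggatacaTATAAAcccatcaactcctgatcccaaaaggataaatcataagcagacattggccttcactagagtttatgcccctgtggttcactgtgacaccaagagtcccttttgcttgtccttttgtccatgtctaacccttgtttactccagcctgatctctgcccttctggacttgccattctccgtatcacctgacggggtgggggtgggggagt
Apob: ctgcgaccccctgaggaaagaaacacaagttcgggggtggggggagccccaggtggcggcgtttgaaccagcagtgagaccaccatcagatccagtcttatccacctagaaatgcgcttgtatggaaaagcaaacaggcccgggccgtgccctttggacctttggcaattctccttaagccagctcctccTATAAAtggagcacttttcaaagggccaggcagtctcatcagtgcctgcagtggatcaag
Apoa5: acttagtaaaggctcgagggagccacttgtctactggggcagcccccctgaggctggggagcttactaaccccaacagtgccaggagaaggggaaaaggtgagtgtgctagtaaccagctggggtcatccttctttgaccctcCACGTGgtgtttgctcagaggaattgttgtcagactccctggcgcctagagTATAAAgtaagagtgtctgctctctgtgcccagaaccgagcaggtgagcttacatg

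A TATA box was searched as TATAAA on both strands. It was found 60 to 55 bases before the start of Apob, 56 to 51 before that of Apoa5 and 212 to 207 before that of Apoa2. The same letters occur in 12.4% of 32851 mouse windows of that length. The Apoa5 window also holds an E-box, CACGTG, 107 to 102 bases before the start, which occurs in 6.02% of windows. Windows were given for 9 of the 10 members, with 3 for Apoe and 2 each for Apoa2 and Apoa5. For each member only the window nearest its annotated 5′ end was searched. Windows end at RefSeq starts, which can differ from that end. The window of Mttp (138143419 to 138143668) lies inside the annotated gene, and that of Apom (35131802 to 35132051) almost wholly so. Those of Apoa1, Apoa4 and Apob reach into the gene. For these genes the bases before the annotated 5′ end were searched in part or not at all. The windows searched for Apoa1, Apoa4, Apoe, Apom, Lcat and Mttp held none of the 7 motifs. The other 5 were the nuclear receptor motif AGGTCA (14.0% of windows), the HNF4 site CAAAGTCCA (0.384%), the D-box TTATGNAA (3.07%), the cyclic AMP response element TGACGTCA (1.55%) and the HNF1 motif GTTAAT (6.43%). A match says only that the letters are present.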

How the data were processed

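Total RNA from liver was made into libraries with a directional kit, per the labels' protocols. The authors deposited a table of raw read counts per gene. The submitters' processing notes name FastQC, Trimmomatic, edgeR and the genome build GRCm38.p6. The aligner, counting program, annotation and strand setting are not given in the sources used here. Symbols and positions came from GENCODE M21 (GRCm38) for 53620 of 53715 identifiers, and promoter windows from RefSeq (GRCm38.p6). No symbol matched the marker name Tf, so 1 marker was not used.

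Low counts were removed by the default filterByExpr settings (edgeR 4.0.16). TMM factors scaled the libraries, and a prior count of 2 entered log2 CPM. All 36 libraries entered a quasi-likelihood F test in edgeR without covariates, with Benjamini-Hochberg adjustment over 14068 genes within each contrast and a threshold of 0.05. Intervals are 95% intervals from that fit, and the floor of detection was 3 counts. The fit was tested on simulated data. No labels describe molecular identifiers, so floors cover counting error only. Nearly identical libraries were looked for by chi-square over genes for each pair of libraries, and the smallest value per degree of freedom was 13.7 within diets and 14.0 between diets, so all libraries were kept. P-values measure the spread between these libraries.

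The members and lists were chosen with earlier results of these data known. Named outside the members were the list genes past the threshold, the gene of each list with the smallest p in each directed contrast, and the 3 genes most correlated with each member. Clock genes named by that rule are not described, beyond the score, and a few other genes it names are not reported here. Alternatives were DESeq2 1.42.0 and its size factors, no low-count filter, limma-voom with sample weights (limma 3.58.1), 5 surrogate variables (sva 3.50.0), the clock score, leaving out libraries and, chosen after seeing the data, the length index.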

Additional observations from a re-analysis of the deposited data

How the results depend on the processing

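With 1 exception, the number of members called was 0 under all 8 other settings and with each of the 36 libraries left out in turn. The exception was the test for any difference among the 3 diets with surrogate variables, which called 1 member, Apoe (adjusted p = 0.0350 in edgeR; tangerine against control 0.14, adjusted 0.0730). In that fit 1051 of 14068 genes were called for any difference, against 166 without the surrogate variables. Of 288 log2 fold changes of members under the other settings, 256 kept their sign and side of the threshold and 32 changed sign, and 0 crossed the threshold. With the clock score as a covariate, the values that changed sign were 0.030 for Apoa1, 0.052 for Apob and 0.036 for Apoe in red against control, -0.036 for Apoa5, -0.11 for Apob and 0.011 for Apom in tangerine against red. With the length index as a covariate, the values that changed sign were 0.029 for Apoa1, 0.022 for Apoa2 and 0.037 for Apoe in red against control. In limma-voom with sample weights, the values that changed sign were 0.12 for Apoa1, 0.068 for Apoa2 and 0.090 for Apoe in red against control, 0.023 for Apoa1, 0.016 for Apoa2, -0.010 for Apoa4 and 0.042 for Apoc3 in tangerine against control, 0.028 for Mttp in tangerine against red, 0.073 for Apoa1 and 0.042 for Apoa2 in both tomato diets against control. With surrogate variables, the values that changed sign were 0.075 for Apoa1, 0.044 for Apoa2 and 0.015 for Apoe in red against control, 0.013 for Apoa1, 0.0014 for Apoa2 and 0.030 for Apoc3 in tangerine against control, 0.044 for Apoa1 and 0.022 for Apoa2 in both tomato diets against control. Without Red 186 and Tangerine 216, the values that changed sign were 0.038 for Apoa1 and 0.021 for Apoe in red against control, 0.0034 for Apob in tangerine against control, -0.0038 for Apoa5 in tangerine against red, 0.0071 for Apoa4 in both tomato diets against control. Among the values that changed sign the smallest adjusted p was 0.334, for Apoe in red against control in limma-voom. Among all 288 it was 0.0614, for Apoe in tangerine against red with surrogate variables in edgeR. In that fit Apom in red against control had 0.0642 and Apoc3 in tangerine against red 0.0757. The cause of the sign changes was not tested.

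Of 1296 values with 1 library left out, 45 changed sign and 0 crossed the threshold. For red against control, leaving out 1 library at a time gave Apoa1 from -0.051 to 0.054, Apoa2 from -0.047 to 0.061 and Apoe from -0.059 to 0.070. For tangerine against control, leaving out 1 library at a time gave Apoa4 from -0.044 to 0.13, Apoa1 from -0.081 to 0.025, Apoa2 from -0.068 to 0.043, Apoc3 from -0.050 to 0.075 and Apob from -0.093 to 0.037. For both tomato diets against control, leaving out 1 library at a time gave Apoa1 from -0.066 to 0.040, Apoa2 from -0.048 to 0.052, Apoc3 from -0.11 to 0.0030 and Apoa4 from -0.16 to 0.052. For tangerine against red, leaving out 1 library at a time gave Apom from -0.060 to 0.018, Apoa1 from -0.086 to 0.0029, Apoa2 from -0.046 to 0.0075 and Mttp from -0.032 to 0.0076.

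The number of pathway list genes called depended more on the setting. In tangerine against red it was 3, and it became 0 with the clock score, 0 without Red 186 and Tangerine 216, 11 with the length index, 8 in DESeq2, 13 in limma-voom and 14 with surrogate variables. Among all 14068 genes the calls moved too, from 241 to 0 with the clock score and 593 with the length index. They were 391 in DESeq2, 732 in limma-voom and 867 with surrogate variables. Without the low-count filter Cebpa had an adjusted p of 0.0578. Leaving out 1 library gave 1 to 6 list genes called, with 1 for Red 175, Red 186, Tangerine 215, Tangerine 216 or Tangerine 217. In red against control the count was 0, and 2 with the length index, 2 in DESeq2, 15 in limma-voom, 8 with surrogate variables and 0 to 1 with 1 library left out. Over all genes 21 were called there, and 197 with the length index, 164 in DESeq2, 1482 in limma-voom and 507 with surrogate variables. With surrogate variables the count of list genes was 4 in tangerine against control and 2 for both tomato diets against control, where limma-voom gave 1. The calls over all genes in these fits were 127, 114 and 34. No paired analysis was possible because no mouse number occurs in more than 1 diet. Lcat had no counts under any setting, and Apoa4, with its wide spread between mice, had the widest intervals.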

Other observations

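Apoa5 differed between diets in its spread, a pattern noticed after the values were seen and given without a test. The SD of log2 CPM was 0.041 in Control, 0.21 in Red and 0.16 in Tangerine (n = 12 each), and the coefficient of variation in Control was 2.89%. Among 7853 genes whose log2 CPM averaged 3 or more, the SD of Apoa5 in Control ranked 1 from the lowest, and so did its ratio to the SD in Red and to that in Tangerine. With DESeq2 size factors the 3 ranks were again 1. Scaled by total count alone, the SD in Control was 0.063 and the ranks were 26, 2 and 18. Apom had an SD of 0.15 in Control, 0.29 in Red and 0.20 in Tangerine, and Apoa4 0.33, 0.57 and 0.52. Apoe went the other way, with 0.27 in Control and 0.100 in Tangerine, and 98.5% of genes had a ratio of these SDs at or below its 2.67. Single libraries weigh on some of these SDs. In Red, Apoa4 had 711 CPM in Red 177 and 309 CPM in the next highest library. In Control, Apoe had 21544 CPM in Control 137 and 15956 CPM in the next highest library. The SDs without these libraries were not computed.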
